A study of Mus with 14 samples.

Results

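The 6 genes described here encode the receptors of tumour necrosis factor (TNF), Tnfrsf1a (TNF receptor 1) and Tnfrsf1b (TNF receptor 2), the ligands Tnf, Lta (lymphotoxin alpha) and Ltb (lymphotoxin beta), and Ltbr, the lymphotoxin beta receptor. They were taken by name, as 6 of the 32285 genes in the files, because 2 of the study's 4 groups are labelled as knockouts of the TNF receptors. Levels are given as CPM, a gene's UMIs divided by all UMIs of the same cells and multiplied by 1000000, where a UMI (unique molecular identifier) stands for 1 captured transcript. Each of 14 libraries holds 3′ single-cell RNA sequencing of the lineage-negative, Kit-positive, CD45.2-positive bone marrow cells of 1 mouse. Kit is the receptor of stem cell factor and marks blood stem and progenitor cells. The MxCre group (n = 3) carries only the recombinase driven by the interferon-inducible Mx promoter. The Dnmt3a group (n = 4) carries in addition an altered Dnmt3a, which encodes a DNA methyltransferase. The groups Dnmt3a;Tnfr1KO (n = 3) and Dnmt3a;Tnfr2KO (n = 4) carry it together with a knockout of TNF receptor 1 or 2. All groups, MxCre included, shared the same history: cells were mixed with CD45.1-positive competitor marrow, given to aged irradiated mice, exposed to poly(I:C) (which induces Mx and so the recombinase) a month later, transplanted again into aged irradiated mice and harvested 20 weeks after that. The labels give neither the kind of Dnmt3a allele nor the part of either receptor gene that the knockouts remove. A 3′ tag outside a deleted part checks nothing, so residual UMIs of a receptor gene do not measure receptor protein.

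TNF is made as a membrane protein, and both its membrane form and the form released by the protease Adam17 bind the receptors. Tnfrsf1a carries a death domain and can lead to NF-kB activation or to cell death, and Tnfrsf1b has no death domain and signals through TRAF adaptors. Ltb anchors Lta in the membrane as a heterotrimer whose receptor is Ltbr, and lymphotoxin from lymphocytes is known for organising lymph nodes. In the marrow, Tnfrsf1a and Tnfrsf1b are known from myeloid cells, and TNF is known to act on haematopoietic stem cells during inflammation.

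After filtering, 66895 cells with 1477674355 UMIs remained, 1924 to 7265 per library. Dnmt3a replicate 1 kept only 26.5% of its barcodes and had the deepest cells (median 39086 UMIs), and Dnmt3a replicate 4 had the shallowest (median 10599.5). Before filtering, the 91 pairs of libraries shared 2 to 23 deposited barcodes, at most 0.348% of the smaller library. Cells were assigned to lineages by the UMIs of marker genes, none of them a TNF-family gene. The gates for granulocyte progenitors (26492 cells; Mpo, Elane and others), monocyte progenitors (8072; Csf1r, F13a1), stem cells (6773; Hlf, Mecom, Procr), erythroid progenitors (6452; Klf1, Car1), basophil and mast cell progenitors (2573; Ms4a2, Cpa3), maturing neutrophils (2030; Ltf, Camp) and megakaryocyte progenitors (1961; Pf4, Gp9) held most cells, and 8409 cells passed no gate. Although the sort removed cells with lineage markers, 2377 cells passed the B-lymphoid gate (Cd79a, Ebf1), 753 the mature B cell gate (Ms4a1, Ighd) and 222 the gate for T, NK and innate lymphoid cells (Cd3e, Trbc2). They were unevenly spread, with 2004 of the B-lymphoid cells in Dnmt3a replicate 4 and 362 of the mature B cells in Tnfr1KO-labelled replicate 2. The names Tnfr1KO-labelled and Tnfr2KO stand for the groups labelled Dnmt3a;Tnfr1KO and Dnmt3a;Tnfr2KO. Tnfrsf1a transcript was still abundant in the first and Tnfrsf1b transcript remained in the second. For the reason given above, this does not check either knockout, and both are known from the labels alone.

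In the GRCm38 assembly Tnfrsf1a lies on chromosome 6 (125349723 to 125362483), and Ltbr lies 35837 bases away on the same chromosome (125306571 to 125313885). Tnfrsf1b lies on chromosome 4 (145212368 to 145246870). Ltb (35194507 to 35196305), Tnf (35199367 to 35202007) and Lta (35203165 to 35205578) stand in a row on chromosome 17, with gaps of 3061 and 1157 bases.

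The genes differed in the lineages that held their UMIs. Tnfrsf1a had 68041 UMIs (46.0 CPM), of which 58.6% lay in granulocyte progenitors and 19.6% in monocyte progenitors. Tnfrsf1b had 15558 UMIs (10.5 CPM), with 57.6% and 19.7% in these gates, and Ltbr had 29588 UMIs (20.0 CPM), with 55.6% and 18.8%. The 2 gates held 49.7% and 15.8% of all UMIs, so the 3 receptor genes were moderately over-represented there. Tnf, with 3696 UMIs (2.50 CPM), had 9.06% of them in maturing neutrophils, a gate with 1.39% of all UMIs. Ltb had 11903 UMIs (8.06 CPM), of which 27.3% lay in the stem cell gate (7.13% of all UMIs), 20.6% in mature B cells (0.158% of all UMIs) and 10.6% in maturing neutrophils. Lta was nearly undetected, with 70 UMIs in all, 27.1% of them in mature B cells and 22.9% in B-lymphoid cells.

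**Figure D1:**
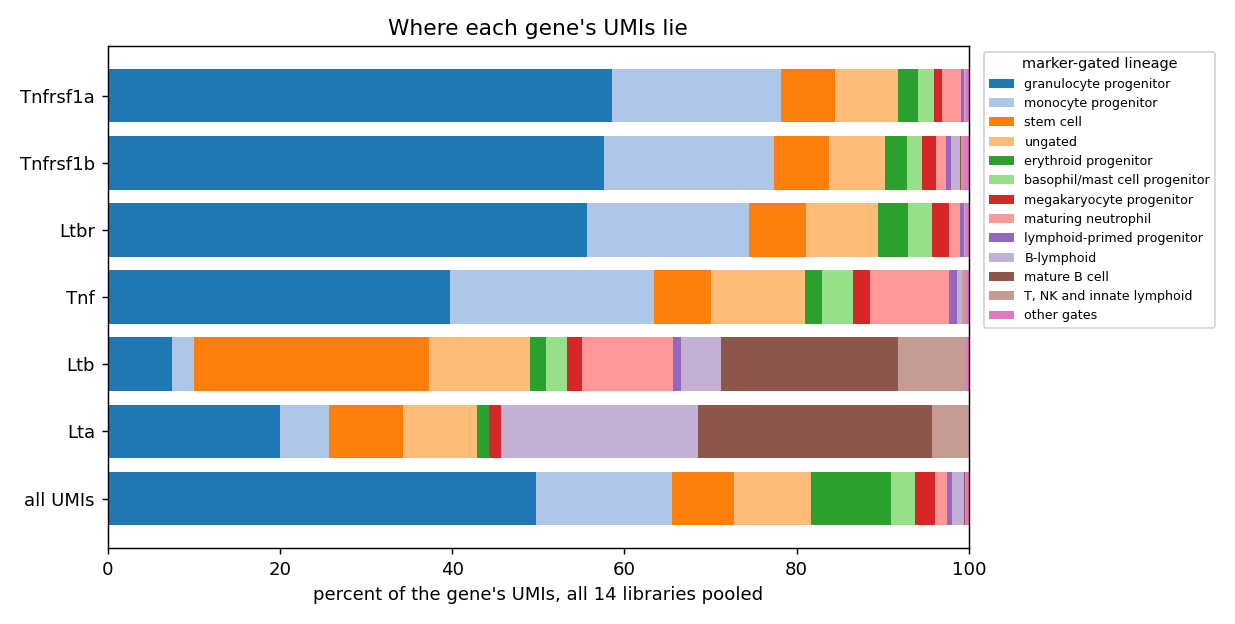
Share of each gene's UMIs by marker-gated lineage (horizontal axis in percent, all 14 libraries pooled; 1 bar per gene and 1 for all UMIs). The bars of the receptor genes Tnfrsf1a, Tnfrsf1b and Ltbr resemble that of all UMIs with more granulocyte and monocyte progenitors, whereas Ltb shows large stem cell and mature B cell segments.

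Tnfrsf1b was the only one of the 6 genes called changed when the cells of a mouse were summed. Its level was 11.3, 17.3 and 13.4 CPM in the 3 MxCre mice, 15.5, 12.8, 14.2 and 17.03 in the 4 Dnmt3a mice, 11.5, 10.3 and 16.5 in the 3 Tnfr1KO-labelled mice, and 3.95, 5.40, 4.64 and 5.09 in the 4 Tnfr2KO mice. The Tnfr2KO mice lay below all other mice, and the other 3 groups overlapped. The Tnfr2KO mean of 4.77 ± 0.628 (SD, n = 4; 2525 UMIs in 25427 cells) was 32.1% of the Dnmt3a mean of 14.9 ± 1.79 (SD, n = 4). In edgeR's quasi-likelihood test the log2 fold change was −1.43 (SE 0.160, adjusted p = 5.58e-04) against Dnmt3a, −1.41 (adjusted p = 0.00152) against Tnfr1KO-labelled and −1.43 (adjusted p = 0.00152) against MxCre, 3 comparisons that share the Tnfr2KO mice. In each of these 3 comparisons 1 of the 5 genes that passed the filter on low counts was called (Lta did not pass), while 0.908%, 0.192% and 0.435% of all 15633 genes were called. In the other 3 comparisons 0 of the 5 genes were called, against 2.36% of all genes in Dnmt3a against MxCre, 0.441% in Tnfr1KO-labelled mice against Dnmt3a and 0.358% against MxCre. Over all 6 comparisons edgeR called 3 of 30 values, 7 had an unadjusted p below 0.05, and DESeq2 called 3. In sums of this kind fewer cells of a type and less RNA per cell cannot be told apart, which is why each lineage was also tested.

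The residual Tnfrsf1b transcript in Tnfr2KO mice varied less between lineages than Tnfrsf1b did in the other groups. In the 10 mice of the other groups the level was highest in monocyte progenitors (18.7 ± 5.15, SD, n = 10) and granulocyte progenitors (17.7 ± 3.12). It was 10.6 ± 2.83 in the stem cell gate and lowest in erythroid progenitors, at 2.70 ± 0.985. In the 4 Tnfr2KO mice the means were 4.54 ± 0.731 in monocyte progenitors, 4.99 ± 1.10 in granulocyte progenitors, 6.37 ± 1.53 in the stem cell gate and 3.78 ± 0.801 in erythroid progenitors. Over the 6 gates that every library filled, the highest lineage exceeded the lowest by 1.87 ± 0.290 times (1.48 to 2.17) in Tnfr2KO. The same ratio was 8.17 ± 0.872 in MxCre, 10.2 ± 7.05 in Dnmt3a and 6.40 ± 3.15 (2.94 to 9.09) in Tnfr1KO-labelled mice, so the Tnfr2KO mice lay below all others.

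**Figure D2:**
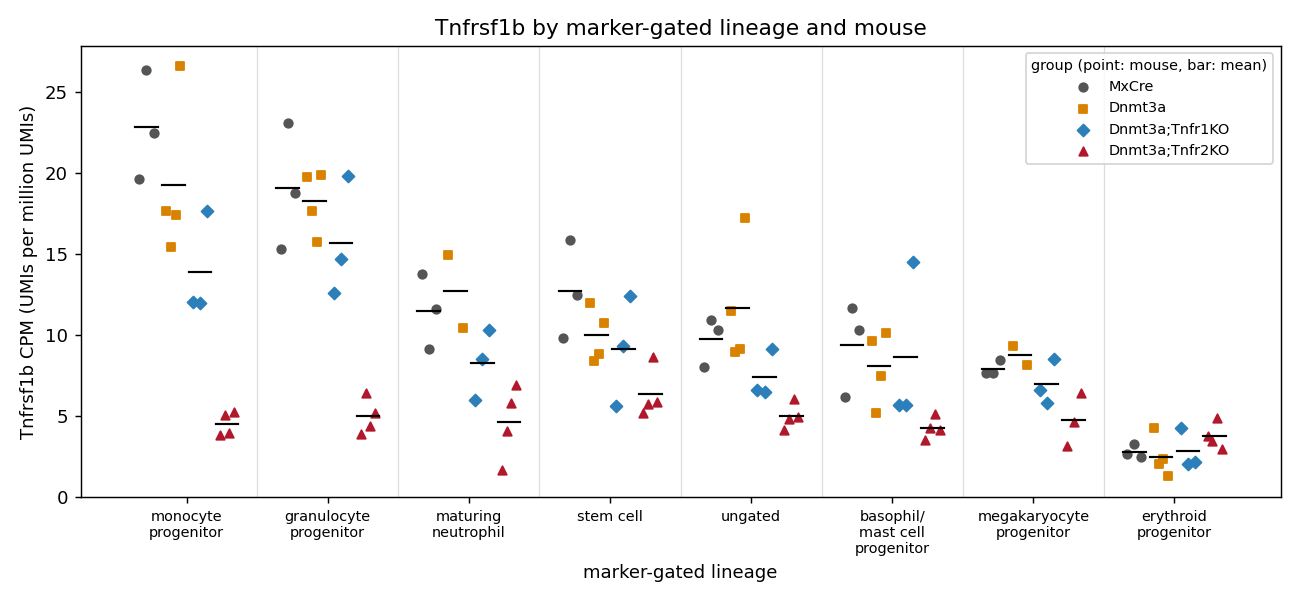
Tnfrsf1b CPM (vertical axis) by marker-gated lineage (horizontal axis); each point is 1 mouse with at least 20 cells in the gate, the bar is the group mean. The 4 Tnfr2KO mice stay between 1.71 and 8.63 in all 8 gates, whereas the other groups range from about the same level in erythroid progenitors to 26.6 in monocyte progenitors.

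In granulocyte progenitors Tnfrsf1b measured 15.3, 23.1 and 18.7 CPM in MxCre, 19.8, 17.6, 15.7 and 19.9 in Dnmt3a, 12.6, 14.7 and 19.8 in Tnfr1KO-labelled and 3.91, 6.42, 4.39 and 5.21 in Tnfr2KO mice. The edgeR change of Tnfr2KO against Dnmt3a was −1.66 (SE 0.157, adjusted p = 2.89e-05), where 3.87% of 13498 genes were called. In monocyte progenitors the 4 groups measured 19.6, 26.3 and 22.5, then 17.7, 15.4, 17.4 and 26.6, then 12.1, 12.002 and 17.6, and 3.86, 5.08, 3.97 and 5.27 in Tnfr2KO. There the edgeR change against Dnmt3a was −1.90 (SE 0.182, adjusted p = 2.76e-05; 2.46% of 12130 genes called). Tnfr2KO did not overlap the other groups in either gate, and Tnfrsf1b was also called in both gates against MxCre (−1.91 and −2.30; 0.37% and 0.206% of genes called) and against Tnfr1KO-labelled mice (−1.66 and −1.61; 0.274% and 0.214% called). The call against Tnfr1KO-labelled mice in monocyte progenitors was lost under a stricter gate (edgeR adjusted p = 0.0913).

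Outside these 2 gates the calls were fewer. In the stem cell gate Tnfrsf1b measured 9.85, 15.9 and 12.5 in MxCre, 11.98, 8.41, 8.81 and 10.8 in Dnmt3a, 5.61, 9.31 and 12.4 in Tnfr1KO-labelled and 5.23, 5.75, 8.63 and 5.88 in Tnfr2KO mice. The Tnfr2KO values overlapped those of Dnmt3a and Tnfr1KO-labelled mice but not those of MxCre. The edgeR change was −0.99 (adjusted p = 0.0166; 2.12% of 11899 genes called) against MxCre and −0.56 (adjusted p = 0.212; 0.731% called) against Dnmt3a. The call against MxCre was lost under 5 of 23 alternatives, namely without MxCre replicate 2 (edgeR adjusted p = 0.0997) or 3 (0.0921), without Tnfr2KO replicate 1 (0.0515) or 2 (0.0578), and with a stricter gate (0.100). In cells outside every gate the edgeR change against Dnmt3a was −1.06 (adjusted p = 0.0310; 0.751% of 11988 genes called), and it missed the threshold under 7 of 23 alternatives. These were the fit of the 2 groups alone (edgeR adjusted p = 0.177) and the fits without MxCre replicate 3, Dnmt3a replicate 1, 3 or 4, or Tnfr2KO replicate 1 or 2 (0.0508 to 0.106).

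For the other 4 gates no edgeR comparison of Tnfrsf1b was called. The change of Tnfr2KO against Dnmt3a was −0.77 (SE 0.337) in megakaryocyte progenitors and −0.86 (SE 0.425) in maturing neutrophils, each with 2 Dnmt3a mice. It was −0.78 (SE 0.310) in basophil and mast cell progenitors and 0.56 (SE 0.302) in erythroid progenitors. Erythroid progenitors were thus the only gate whose Tnfr2KO mean (3.78 against 2.51 in Dnmt3a) was not below that of Dnmt3a, and the values overlapped. Over the 8 gates, 8 of 48 edgeR comparisons of Tnfrsf1b were called, all of them lower in Tnfr2KO; 21 had an unadjusted p below 0.05, and DESeq2 called 9. Set against the mice of the other groups together, the Tnfr2KO level was lower in every gate but the erythroid one. Exact permutation tests, added after the data were seen, gave adjusted p between 0.00266 and 0.0148 in these gates. For erythroid progenitors the value was 0.0759, with adjustment over 8 gates. The tests used 10 other mice, or 8 in maturing neutrophils and in megakaryocyte progenitors, the latter with 3 Tnfr2KO mice.

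The counts within lineages stand against the following shares of all genes called by edgeR in the gates not yet given. In Dnmt3a against MxCre it was 4.89% in granulocyte progenitors, 1.67% in monocyte progenitors, 3.92% in megakaryocyte progenitors, 1.23% in basophil and mast cell progenitors, 0.0144% in maturing neutrophils, 5.36% in ungated cells and 0% in erythroid progenitors. In Tnfr1KO-labelled mice against Dnmt3a it was 0.639% in the stem cell gate, 0.976% in megakaryocyte, 0.0362% in erythroid and 0.656% in basophil and mast cell progenitors, 0.0719% in neutrophils and 0.784% in ungated cells. Against MxCre the Tnfr1KO-labelled shares were 0.126% in granulocyte, 0.0907% in monocyte, 0.191% in megakaryocyte, 0.0181% in erythroid and 0.109% in basophil and mast cell progenitors, 1.07% in ungated cells and 0% in neutrophils. Tnfr2KO against Dnmt3a gave 1.21% in megakaryocyte, 0.0906% in erythroid and 0.577% in basophil and mast cell progenitors and 0.0144% in neutrophils. Tnfr2KO against Tnfr1KO-labelled mice gave 0.109% in the stem cell gate, 0.153% in megakaryocyte, 0.0544% in erythroid and 0.0696% in basophil and mast cell progenitors, 0.175% in ungated cells and 0% in neutrophils. Tnfr2KO against MxCre gave 1.03% in megakaryocyte, 0.118% in erythroid and 0.139% in basophil and mast cell progenitors, 0.267% in ungated cells and 0% in neutrophils. Of the members, edgeR called Tnfrsf1b in 8 of 48 comparisons within lineages and Ltb in 3 of 48, all in the stem cell gate, where 8.15%, 1.27% and 2.12% of all genes were called in those comparisons. Tnfrsf1a and Ltbr had 0 calls in 48 comparisons each, and Tnf 0 in 30.

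**Figure D3:**
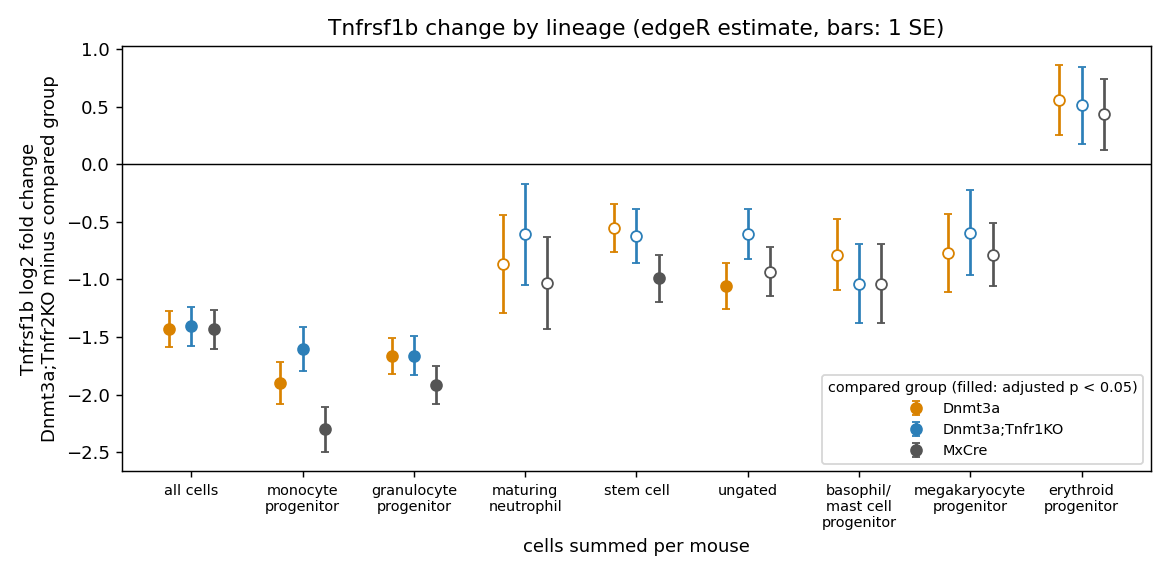
Change of Tnfrsf1b between Tnfr2KO and each other group (vertical axis, edgeR log2 fold change, bars 1 SE) over all cells and by marker-gated lineage (horizontal axis); filled points have an adjusted p below 0.05. The estimates are lowest in monocyte (−1.90 against Dnmt3a) and granulocyte progenitors (−1.66) and above 0 in erythroid progenitors (0.56).

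Whether the difference itself depended on the lineage was tested within mice, by the log2 level in granulocyte progenitors minus that in another gate (1 CPM added before the log). These gaps were chosen after the data were seen. Against erythroid progenitors this gap was 2.37 ± 0.482 (SD) in the 10 mice of the other groups and 0.32 ± 0.427 in the 4 Tnfr2KO mice, a difference of −2.05 (exact permutation p = 0.000999, the smallest these numbers allow; adjusted p = 0.0035 over 7 gates). The gap to the stem cell gate was 0.72 ± 0.182 in the other groups and −0.30 ± 0.410 in Tnfr2KO (difference −1.02, exact permutation p = 0.000999, adjusted p = 0.0035). The gaps to megakaryocyte progenitors (−1.02, 3 Tnfr2KO mice against 8), basophil and mast cell progenitors (−0.83) and ungated cells (−0.83) also passed. Those to monocyte progenitors (0.15, exact permutation adjusted p = 0.264) and maturing neutrophils (−0.51, 4 against 8 mice, adjusted p = 0.130) did not. Against the 4 Dnmt3a mice alone the gaps to the stem cell, erythroid and basophil and mast cell gates did not overlap, but the smallest p that 4 against 4 mice allow (exact permutation p = 0.0286) became 0.0667 after adjustment.

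Tnfrsf1a was not called in any edgeR comparison, in all cells or in any of the 8 gates, and the Tnfr1KO-labelled mice kept most of its transcript. Its level was 41.3, 46.4 and 40.9 CPM in MxCre, 37.95, 41.9, 54.2 and 54.4 in Dnmt3a, 37.3, 33.2 and 37.7 in Tnfr1KO-labelled and 48.7, 39.1, 53.9 and 64.0 in Tnfr2KO mice. The 3 Tnfr1KO-labelled values were the lowest of the 14, though replicate 3 (37.7) lay just under Dnmt3a replicate 1 (37.95). Their mean of 36.1 ± 2.50 (SD, n = 3; 10149 UMIs in 12824 cells) was 76.6% of the Dnmt3a mean of 47.1 ± 8.42 (n = 4). The edgeR change was −0.19 (SE 0.187, adjusted p = 0.594) against Dnmt3a, where 0.441% of genes were called, and −0.14 (adjusted p = 0.819) against MxCre, where 0.358% were. Neither comparison was called under any of 23 alternatives, and of the 48 lineage comparisons of Tnfrsf1a 9 had an unadjusted edgeR p below 0.05 and DESeq2 called 0. Against the 11 mice of the other groups, an exact permutation test of log2(CPM + 1), which is not scaled by TMM, gave p = 0.0192. It was added after the data were seen.

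By CPM the Tnfr1KO-labelled mice stood apart in granulocyte and monocyte progenitors. In granulocyte progenitors Tnfrsf1a measured 38.7, 40.2 and 41.3 CPM in Tnfr1KO-labelled mice, against 55.3, 56.4 and 54.3 in MxCre, 45.2, 49.7, 58.3 and 67.9 in Dnmt3a and 55.4, 48.7, 57.2 and 71.8 in Tnfr2KO. In monocyte progenitors it measured 39.6, 41.9 and 41.8 in Tnfr1KO-labelled mice, against 62.7, 68.0 and 61.5 in MxCre, 46.5, 55.8, 69.9 and 78.5 in Dnmt3a and 57.9, 55.8, 59.7 and 75.5 in Tnfr2KO. In both gates the Tnfr1KO-labelled mice lay below all 11 others, at 72.4% and 65.6% of the Dnmt3a mean. An exact permutation test gave p = 0.00275, the smallest 3 against 11 mice allow (adjusted p = 0.0110 over 8 gates). This test was added after the data were seen, so it restates the separation. The edgeR changes against Dnmt3a were −0.26 (adjusted p = 0.328; 4.45% of genes called) and −0.44 (adjusted p = 0.148; 1.41% called). Scaling by UMI totals without TMM moved both edgeR values past the threshold (−0.47 and −0.61, adjusted p = 0.0353 and 0.0352). Leaving out Dnmt3a replicate 1 did so in monocyte progenitors. Over all cells the median log2 change of all genes in this comparison was −0.05 with TMM and −0.25 without. The CPM values, percentages and exact tests given here also use UMI totals without TMM. Both the size of the drop and whether it was called thus depend on the scaling.

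In the other gates the groups overlapped. In the stem cell gate Tnfrsf1a measured 34.6, 35.6 and 35.0 in Tnfr1KO-labelled mice, against 35.5 to 52.8 in the other 11. In erythroid progenitors the Tnfr1KO-labelled mean was 12.9 ± 0.632 (n = 3) and that of the other mice 11.05 ± 3.55 (n = 11). The log2 gap between granulocyte progenitors and the stem cell gate was 0.19 ± 0.039 in Tnfr1KO-labelled mice and 0.39 ± 0.126 in the others (exact permutation p = 0.0247, adjusted p = 0.0433 over 7 gates). The gaps to ungated cells, maturing neutrophils and monocyte progenitors also differed (by −0.18, −0.27 and 0.12, each with an exact permutation adjusted p of 0.0433), and those to the other 3 gates did not pass. Against the Dnmt3a mice alone none of the 7 passed (exact permutation adjusted p of at least 0.2). These gap tests, too, were added after the data were seen. The spread over lineages was also smaller: the highest of the 6 filled gates exceeded the lowest by 3.19 ± 0.236 times (2.97 to 3.44) in Tnfr1KO-labelled mice, below the range of 4.08 to 30.3 in the other 11 mice. The value of 30.3 belongs to Dnmt3a replicate 4, whose erythroid progenitors had 2.59 CPM.

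**Figure D4:**
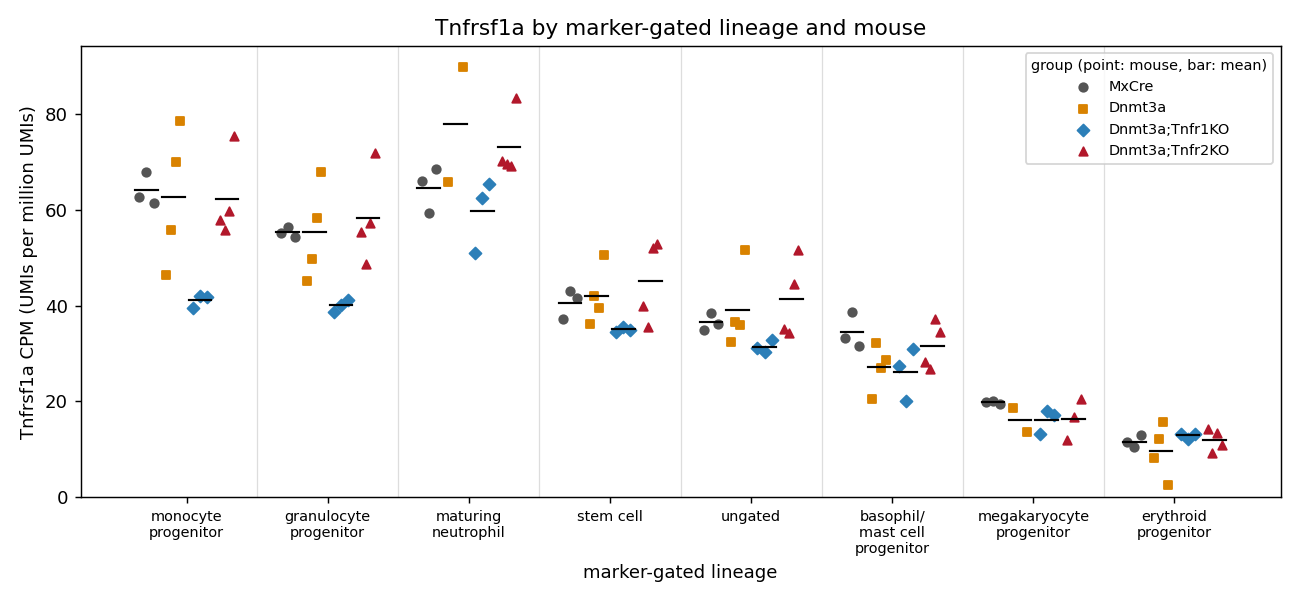
Tnfrsf1a CPM (vertical axis) by marker-gated lineage (horizontal axis); each point is 1 mouse with at least 20 cells in the gate, the bar is the group mean. The 3 Tnfr1KO-labelled mice lie between 38.7 and 41.9 in monocyte and granulocyte progenitors, below the other 11 mice, and among the other groups in erythroid progenitors.

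Leaving the Tnfr1KO-labelled mice aside, Tnfrsf1a levels followed a steep order over lineages. The means were 71.3 ± 9.39 (n = 9) CPM in maturing neutrophils, 62.9 ± 9.39 (n = 11) in monocyte progenitors, 56.4 ± 7.82 in granulocyte progenitors, 42.8 ± 6.30 in the stem cell gate, 39.3 ± 6.88 in ungated cells and 30.8 ± 5.21 in basophil and mast cell progenitors. Megakaryocyte progenitors had 17.6 ± 3.25 (n = 8), erythroid progenitors 11.05 ± 3.55 and mature B cells 0.472 ± 0.944 (n = 4). Of the neighbours in this order, those from monocyte progenitors down to megakaryocyte progenitors differed within mice (exact sign-flip permutation, adjusted p between 0.0127 and 0.0453 over 58 neighbour pairs of all 6 genes). Neutrophils and monocyte progenitors, and megakaryocyte and erythroid progenitors, did not pass (exact sign-flip permutation adjusted p = 0.241 and 0.113). B-lymphoid cells (10.0 ± 7.67, n = 3) stood below erythroid progenitors, a pair that could not pass with 3 mice (smallest p 0.25). B-lymphoid and mature B cells shared too few mice to be compared. For Tnfrsf1b, without the Tnfr2KO mice, only granulocyte progenitors and maturing neutrophils differed as neighbours (log2 difference 0.69 ± 0.402, higher in 8 of 8 mice, exact permutation adjusted p = 0.0453). The small gates were pooled over all 14 libraries, with both knockout groups included. There Tnfrsf1b reached 119 CPM in 115 macrophages and Tnfrsf1a 245 in 112 stromal and endothelial cells. Each of these gates reached 20 cells in 1 library only, which for the stromal and endothelial gate was Tnfr1KO-labelled replicate 2 (21 cells).

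Ltbr, the receptor of the Lta and Ltb heterotrimer, was not called in any comparison. It measured 17.5, 19.7 and 18.5 CPM in MxCre, 19.7, 19.3, 21.9 and 19.0 in Dnmt3a, 22.1, 17.6 and 18.9 in Tnfr1KO-labelled and 19.7, 18.1, 21.4 and 24.7 in Tnfr2KO mice. All groups overlapped, and the 6 edgeR log2 changes lay between 0.02 and 0.30 (adjusted p between 0.218 and 1.00). Across the 8 gates edgeR called 0 of 48 comparisons of Ltbr, 1 had an unadjusted p below 0.05, and DESeq2 called 0. Its mean ran from 23.9 ± 2.51 (n = 14) in monocyte progenitors and 22.1 ± 1.82 in granulocyte progenitors to 16.9 ± 2.27 (n = 11) in megakaryocyte progenitors, and it was lower in erythroid progenitors, at 7.47 ± 2.19 (n = 14). Monocyte and granulocyte progenitors (exact permutation adjusted p = 0.0416), and megakaryocyte and erythroid progenitors (0.0127), were the neighbours that differed. In mature B cells Ltbr stood at 0.409 ± 0.747 (n = 7).

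Ltb fell in the stem cell gate of all 3 groups that carry the altered Dnmt3a. It measured 39.4, 46.2 and 47.9 CPM in MxCre, 19.7, 25.1, 21.4 and 19.1 in Dnmt3a, 31.3, 17.3 and 20.0 in Tnfr1KO-labelled and 27.9, 26.8, 19.8 and 17.8 in Tnfr2KO mice. Every MxCre mouse lay above every other mouse, and the other 3 groups overlapped. The edgeR change against MxCre was −1.13 (SE 0.191, adjusted p = 0.00358) in Dnmt3a, where 8.15% of 11899 genes were called, −0.96 (SE 0.220, adjusted p = 0.0389; 1.27% called) in Tnfr1KO-labelled mice and −0.87 (SE 0.188, adjusted p = 0.0207; 2.12% called) in Tnfr2KO mice. These 3 comparisons share the MxCre mice. Against Dnmt3a the changes were 0.16 in Tnfr1KO-labelled and 0.26 in Tnfr2KO mice and were not called.

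The call of Ltb in Dnmt3a held under each of 23 alternatives (edgeR adjusted p up to 0.0317, without MxCre replicate 3). That in Tnfr1KO-labelled mice held under 17 of 23 and was lost without MxCre replicate 2 or 3 or Tnfr1KO-labelled replicate 2 (edgeR adjusted p = 0.129, 0.185 and 0.270) or replicate 3 (0.160), with doublets kept (0.0501) and with a stricter gate (0.0584). That in Tnfr2KO mice held under 20 of 23 and was lost without MxCre replicate 2 or 3 (edgeR adjusted p = 0.0936 and 0.137) or Tnfr2KO replicate 4 (0.0565). The stem cell gate held 103 to 1403 cells per library at median depths of 8723 to 25212.5 UMIs.

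The makeup of the stem cell gate also differed between MxCre and the other groups. The summed level of the 8 granulocyte progenitor markers was 698 CPM (556 to 825) in MxCre and 1292 (1093 to 1531) in Dnmt3a, 1209 in Tnfr1KO-labelled and 1396 in Tnfr2KO mice. The 6 lymphoid-primed markers summed to 24.2 (18.8 to 30.8) in MxCre and to 78.7 (42.2 to 109), 81.6 and 66.5 in the other groups. Il7r was at 0 in every group but Dnmt3a, and Rag1 and Ccr9 were also at 0 in Tnfr1KO-labelled mice. The 8 megakaryocyte markers summed to 236 (204 to 253) in MxCre and to 139 (96.0 to 180), 145 and 150 elsewhere, and the 8 stem cell markers to 562, 500, 457 and 454. The 6 mature B cell markers summed to between 0.922 and 3.59 in every library, with Cd22 and Ms4a1 at 0 in Dnmt3a and Tnfr2KO mice. The 8 markers of T, NK and innate lymphoid cells summed to 230 (181 to 303) in MxCre and to 304 (257 to 365), 312 and 295 in the other groups, with Cd3g at 0 in all groups and Cd3e at 0 outside MxCre. The part of these shifts in the Ltb result was not tested.

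Over all cells Ltb was not called, and in several libraries most of it lay in lymphoid cells. It measured 8.42, 12.2 and 18.6 CPM in MxCre, 4.32, 5.43, 4.92 and 21.2 in Dnmt3a, 3.35, 20.1 and 9.51 in Tnfr1KO-labelled and 4.05, 4.06, 3.54 and 3.51 in Tnfr2KO mice. The lymphoid gates held 57.5% of the Ltb UMIs in Dnmt3a replicate 4 and 78.5% in Tnfr1KO-labelled replicate 2, against 1.29% to 7.23% in Tnfr2KO mice. Without these gates MxCre stood at 11.8 ± 4.20 (SD, n = 3) and Dnmt3a at 5.91 ± 3.42 (n = 4). The Tnfr1KO-labelled mice stood at 3.36 ± 0.922 (n = 3) and the Tnfr2KO mice at 3.62 ± 0.288 (n = 4). Cell composition differed here too, as the stem cell gate held a mean of 20.9% of the cells in MxCre mice. In Dnmt3a, Tnfr1KO-labelled and Tnfr2KO mice that gate held 9.24%, 5.73% and 8.78%. Its part in these Ltb differences was not tested. The edgeR change over all cells of Tnfr2KO against MxCre was −1.64 (SE 0.564, adjusted p = 0.215).

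Ltb differed widely between lineages. The mean was 977 ± 184 (n = 7) CPM in mature B cells, 85.1 ± 73.0 (n = 5) in B-lymphoid cells, 58.2 ± 21.7 (n = 12) in maturing neutrophils, 27.1 ± 10.4 (n = 14) in the stem cell gate and 12.002 ± 8.18 in ungated cells. Basophil and mast cell progenitors had 6.78 ± 1.68, and granulocyte progenitors, which hold 49.7% of all UMIs, had 1.23 ± 0.237. As neighbours, maturing neutrophils and the stem cell gate differed (log2 difference 1.03 ± 0.642, higher in 11 of 12 mice, exact permutation adjusted p = 0.0127), and so did ungated cells and basophil and mast cell progenitors (0.0127). In the pooled gate for T, NK and innate lymphoid cells Ltb stood at 687 CPM (222 cells). Besides the 3 calls in the stem cell gate, edgeR called no lineage comparison of Ltb; the changes nearest to the threshold were −2.05 in megakaryocyte progenitors of Dnmt3a against MxCre (adjusted p = 0.0548, Dnmt3a n = 2) and −1.72 in monocyte progenitors of Tnfr2KO against Dnmt3a (adjusted p = 0.0838; DESeq2 0.0307). They were called under 6 of 19 and 4 of 23 alternatives. Leaving out Dnmt3a replicate 2 moved the first to −3.90 (edgeR adjusted p = 0.0277) and leaving out Dnmt3a replicate 1 to −1.47 (0.467), each with 1 Dnmt3a mouse assumed to vary like the other groups.

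**Figure D5:**
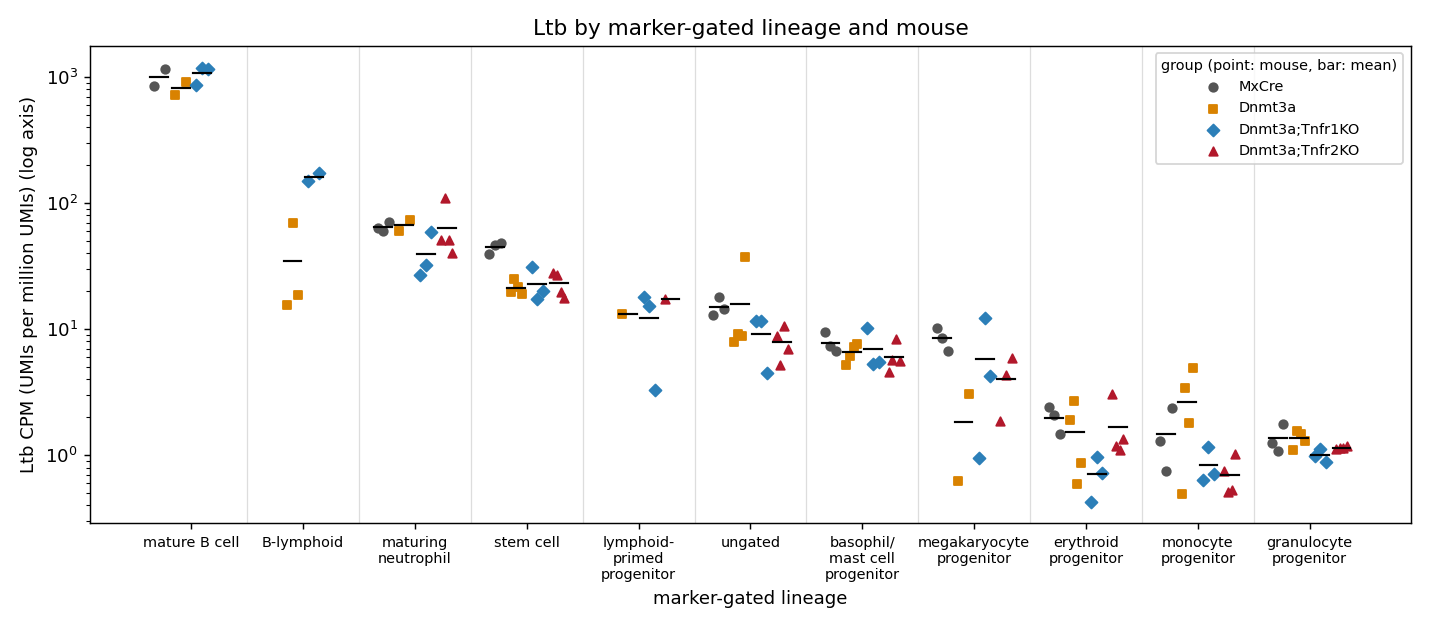
Ltb CPM (vertical axis, log scale) by marker-gated lineage (horizontal axis); each point is 1 mouse with at least 20 cells in the gate, the bar is the group mean. Mature B cells lie between 715 and 1186 and granulocyte progenitors near 1.23, and in the stem cell gate the 3 MxCre mice (39.4 to 47.9) lie above all others (17.3 to 31.3).

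Tnf, the ligand of both TNF receptors, was found at low levels. It measured 2.54, 3.36 and 2.53 CPM in MxCre, 1.93, 2.02, 2.88 and 3.88 in Dnmt3a, 5.87, 1.83 and 1.85 in Tnfr1KO-labelled and 2.15, 1.39, 1.36 and 1.76 in Tnfr2KO mice. The 4 Tnfr2KO values lay below those of MxCre and overlapped the other groups. Tnfr1KO-labelled replicate 1 had the highest value of all 14 mice, and it was also the highest in basophil and mast cell progenitors (16.5, against 0.704 to 6.53 in the other 13 mice), erythroid progenitors (3.01, against 0.181 to 0.966) and monocyte progenitors (8.41, against 1.47 to 4.595). The edgeR change of Tnfr2KO was −0.47 against Dnmt3a (adjusted p = 0.462), −0.63 against MxCre (0.466) and −0.96 against Tnfr1KO-labelled mice (1.00), and none was called. Among the lineages, maturing neutrophils had the highest mean, 13.99 ± 6.19 (n = 12). The other 10 ranged from 0.279 in mature B cells to 4.18 in lymphoid-primed progenitors, and no neighbours in that order passed. As neighbours, maturing neutrophils were compared only with lymphoid-primed progenitors, and they were higher in 4 of 4 mice. The exact sign-flip permutation p of 0.125 is the smallest 4 mice allow, so that pair could not pass. Of 30 lineage comparisons of Tnf edgeR called 0, 3 had an unadjusted p below 0.05, and DESeq2 called 0. In the 3 gates where Tnf did not pass the filter, the fit without it called 1 of 18 comparisons, where between 0.0209% and 4.15% of all genes were called. It was basophil and mast cell progenitors of Tnfr2KO against Tnfr1KO-labelled mice (edgeR log2 change −1.96, SE 0.477, adjusted p = 0.00961; 0.584% of all genes). There Tnfr1KO-labelled replicates 2 and 3 had 1.52 and 2.50 CPM beside the 16.5 of replicate 1, and the groups overlapped.

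Lta, which pairs with Ltb, was at the limit of detection. Its UMIs numbered 3, 0 and 2 in the MxCre mice, 5, 2, 8 and 16 in the Dnmt3a mice, 2, 17 and 3 in the Tnfr1KO-labelled mice and 2, 2, 3 and 5 in the Tnfr2KO mice. The 2 highest counts belong to Dnmt3a replicate 4 and Tnfr1KO-labelled replicate 2, the libraries with the most lymphoid cells, and lymphoid gates held 87.5% and 76.5% of their Lta UMIs. Lta stood at 6.48 ± 5.07 CPM (n = 7) in mature B cells, and 0 UMIs were found among the 2573 basophil and mast cell progenitors and the 2030 maturing neutrophils. In these gates 3 UMIs, the limit a count of 0 allows, would be 0.0712 and 0.146 CPM.

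The share of cells with at least 1 UMI was compared in 36 tests, and none passed after adjustment. With groups this small, an adjusted p below 0.05 would need most of the tests to reach their smallest p together. The adjusted values therefore cannot decide whether a single share differed. After every cell was thinned to 5000 UMIs, Tnfrsf1b was found in 2.48% ± 0.316 (SD, n = 4) of Tnfr2KO cells, against 6.57% ± 0.798 in Dnmt3a (n = 4), 5.92% ± 1.44 in Tnfr1KO-labelled (n = 3) and 6.33% ± 1.21 in MxCre mice (n = 3). The groups did not overlap, each exact permutation p was 0.0286, the smallest 4 against 4 or 3 mice allow, and the adjusted p was 0.206 over 36 tests. Before thinning the shares were 9.31% in Tnfr2KO and 29.1%, 22.5% and 22.1% in the other groups, with median depths of 10599.5 to 39086 UMIs. In erythroid progenitors, the lineage with the lowest Tnfrsf1b level, the thinned share was 2.05% in Tnfr2KO and 1.32% to 1.82% in the other groups (unthinned 4.81% to 6.20%, median depths 8471 to 34442), so the Tnfr2KO share over all cells lay near that of erythroid progenitors.

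For Ltb the thinned share was 2.57% ± 0.227 in Tnfr2KO and 6.94% ± 1.98 in MxCre mice (exact permutation p = 0.0286, adjusted p = 0.206), against 1.65% and 1.64% in the erythroid progenitors of these groups. The stem cell gate, rich in Ltb, held a mean of 8.78% of the cells in Tnfr2KO and 20.9% in MxCre mice. For Tnf it was 0.851% ± 0.170 in Tnfr2KO and 1.52% ± 0.397 in MxCre (exact permutation p = 0.0286, adjusted p = 0.206), against 0.163% and 0.634% in erythroid progenitors. Tnfrsf1a was found in 16.3% ± 0.933 of thinned cells in Tnfr1KO-labelled mice and 18.9% ± 2.57 in Dnmt3a mice (exact permutation p = 0.2, adjusted p = 0.514), and Ltbr in 8.74% to 9.69% in all groups. In mature B cells, the lineage with the lowest Tnfrsf1a level, the unthinned share over all libraries was 0.266% of 753 cells, at median depths of 2083 to 4027 UMIs in the 13 libraries that held such cells. Of the 36 tests 5 had an unadjusted exact permutation p below 0.05, and none passed an adjustment that these group sizes could hardly meet.

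The genes whose mean log2 level over the 11 lineages was most like that of each member were, for Tnfrsf1a, Mfsd13a (Pearson r = 0.96), Pak1 and Pgk1; for Tnfrsf1b, Mapkapk2 (0.95), Pgam1 and Ldlrad3; and for Ltbr, B230118H07Rik (0.98), Rnf149 and Lrmda. For Tnf they were Agpat2 (0.93), Slc22a15 and Peli2, for Ltb Dennd3 (0.98), 5830408C22Rik and Stk17b, and for Lta Igkv1-117, Gm34215 and Gm20429. These correlations are descriptions over 11 points that share their libraries and differ in depth, and 9841 genes were compared (9842 for Lta).

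Among the other genes of the pathway few were called over all cells, in sums that do not separate cell composition from RNA per cell. Of 25 other receptors of the TNF superfamily 22 passed the filter. Tnfrsf18 (GITR, known from regulatory T cells) was lower in Dnmt3a than in MxCre (4.91 ± 1.52 against 10.7 ± 2.51 CPM, edgeR log2 change −1.21, adjusted p = 0.0308) and in Tnfr2KO than in MxCre (3.40 ± 0.286, −1.53, adjusted p = 0.00799). The first call held under 16 of 23 alternatives and was lost without any 1 of the 3 MxCre mice (edgeR adjusted p up to 0.144), and the second held under 22, with an adjusted p of 0.0679 without MxCre replicate 3. Tnfrsf10b (the TRAIL receptor) was lower in Dnmt3a than in MxCre by edgeR (−0.82, adjusted p = 0.0473), a call that held under only 6 of 23 alternatives. These 2 were the calls among the 22 in that comparison, where 2.36% of all genes were called, and the median log2 change of the 22 was 0.11, against 0.03 over all genes. Tnfrsf14 (the receptor of LIGHT and of BTLA) was higher in Tnfr2KO than in every other group, at 7.82 ± 0.498 against 2.10 ± 0.833 in Dnmt3a (edgeR log2 change 2.13, adjusted p = 4.63e-04), and it lies on chromosome 4, as Tnfrsf1b does, 9.67 megabases away.

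Of 15 other TNF superfamily ligands 10 passed the filter, and edgeR called 0 in each of the 6 comparisons, where between 0.192% and 2.36% of all genes were called. The 6 shedding genes, Adam17 among them, were not called over all cells, and of the 27 receptor-proximal and NF-kB genes only Otulin (a linear-ubiquitin protease) was, higher in Tnfr1KO-labelled than in Dnmt3a mice (66.3 ± 4.97 against 54.0 ± 3.44, edgeR log2 change 0.49, adjusted p = 0.0453), under 8 of 23 alternatives. In the stem cell gate of Dnmt3a against MxCre, Timp3, an inhibitor of Adam17, was lower (1.36 ± 0.642 against 7.71 ± 3.97, edgeR log2 change −2.45, adjusted p = 0.00514), as was Tnfrsf18 (−0.80, adjusted p = 0.0119). Of the 6 shedding genes 5 passed the filter in this gate and Timp3, chosen after its values were seen, was the 1 called, where 8.15% of all genes were. Its call held under all 23 alternatives, and that of Tnfrsf18 was lost without MxCre replicate 2 or 3 (edgeR adjusted p = 0.0539 and 0.0665). Of the 27 receptor-proximal and NF-kB genes 0 were called there.

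Of the 31 annotated neighbours of the 6 loci 21 passed the filter over all cells, again in sums that do not separate composition from RNA per cell. Beside Tnfrsf1b on chromosome 4, Dhrs3 (34.7 ± 8.53 against 19.0 ± 6.16 CPM) and Zfp990 (19.1 ± 8.06 against 0.127 ± 0.0876) were higher in Tnfr2KO than in Dnmt3a (edgeR log2 changes 1.08 and 7.53, adjusted p = 0.0335 and 2.52e-06). The call of Zfp990 held under all 23 alternatives, and that of Dhrs3 under 15, with an edgeR adjusted p of up to 0.195 in a fit of the 2 groups alone. It was lost without MxCre replicate 2 or 3, Dnmt3a replicate 1, Tnfr1KO-labelled replicate 2 or 3, or Tnfr2KO replicate 1 or 2. Against MxCre, Dhrs3 was higher in Tnfr2KO mice under all 23 alternatives (1.71, edgeR adjusted p = 0.00350). Zfp980 was also called in Tnfr2KO against Dnmt3a (edgeR log2 change 5.57, adjusted p = 0.00737), at only 0.154 ± 0.0661 CPM in Tnfr2KO. With the other groups lower still, its passing of the filter on low counts rested on the Tnfr2KO mice. That call held in all 19 alternatives that gave a value. Those against Tnfr1KO-labelled mice and MxCre held under 8 and 12 of 20. Beside Tnfrsf1a and Ltbr on chromosome 6 no neighbour was called between Tnfr1KO-labelled and Dnmt3a mice. There Cd9, which encodes a tetraspanin, was lower than in MxCre in Dnmt3a (edgeR log2 change −1.05, adjusted p = 0.0308), Tnfr1KO-labelled (−1.16, 0.0378) and Tnfr2KO mice (−0.98, 0.0441). These calls held under 16, 16 and 12 of 23 alternatives, and the highest edgeR adjusted p was 0.135 and 0.295 for the first and last, without MxCre replicate 3, and 0.232 for the second, without Tnfr1KO-labelled replicate 3.

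In the stem cell gate 19 of the 31 neighbours passed the filter, and in Dnmt3a against MxCre edgeR called 2 of them higher and 3 lower, where 8.15% of all genes were called. Dhrs3, which encodes a retinaldehyde reductase, was higher than in MxCre (10.9 ± 1.27 CPM) in Dnmt3a (22.01 ± 2.08, edgeR log2 change 0.95, adjusted p = 0.00489), Tnfr1KO-labelled (26.5 ± 4.02, 1.35, 0.00125) and Tnfr2KO mice (38.9 ± 8.44, 1.91, 3.60e-06). Each of these calls held under all 23 alternatives, as did that of Tnfr2KO against Dnmt3a (0.96, edgeR adjusted p = 0.00512). Zfp990 was again higher in Tnfr2KO than in Dnmt3a (34.2 ± 14.5 against 0.447 ± 0.165). Nfkbil1, the gene after Lta on chromosome 17, was higher in Dnmt3a (0.55, edgeR adjusted p = 0.0153) and Tnfr2KO mice (0.74, adjusted p = 0.00440) than in MxCre. Ltb, 3 genes away, was lower in both groups than in MxCre. The first of these calls was lost without MxCre replicate 2 or 3 (edgeR adjusted p = 0.0878 and 0.0538). The 3 neighbours called lower in Dnmt3a than in MxCre were Cd9 (−0.60, edgeR adjusted p = 0.0120), Gm13212 beside Tnfrsf1b (−0.62, 0.0137) and Vwf beside Tnfrsf1a (−1.85, 0.0299). Cd9 and Gm13212 were not called without MxCre replicate 3 (edgeR adjusted p = 0.0737 and 0.0922), nor was Gm13212 without MxCre replicate 2 (0.0537) or under the stricter gate (0.0584). Vwf, which encodes von Willebrand factor, is a marker of the megakaryocyte gate, which took its cells before the stem cell gate was drawn, so its level here is limited by the gating. It ranged from 3.61 to 22.9 CPM in MxCre and from 1.90 to 5.42 in Dnmt3a, so the groups overlapped. Its call held under 17 of 23 alternatives and was lost without MxCre replicate 2 or Dnmt3a replicate 3 or 4 (edgeR adjusted p of 0.0524 to 0.0805). The call was also lost with the replicate number as a block and in a fit of the 2 groups alone. Without MxCre replicate 3 the change was −0.80 (edgeR adjusted p = 0.383).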

How the data were processed

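Each library gives the 3′ RNA of the sorted cells of 1 mouse as raw UMI counts per gene and cell, which the authors deposited as filtered matrices. The file headers name Cell Ranger 6.0.0. The build mm10 (GRCm38) and bcl2fastq 2.20.0.422 are named in the submitters' processing notes. Locus positions were taken from a RefSeq gene table of GRCm38.p6. A cell was kept if it had 1000 UMIs or more, 500 genes or more and no more than 10% mitochondrial UMIs, and called doublets (simulated from each library, 0.8% per 1000 cells) were removed with scikit-learn 1.9.0 and numpy 2.4.6. Lineages are 15 sequential gates on 90 marker genes. A cell passed with at least 2 of a gate's genes detected and their summed UMIs per 10000 above a limit, which was set after the markers' counts, not the members', had been seen. Near the limits lay 21.3% of the monocyte progenitors and 16.3% of the stem cell gate.

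Counts were summed per mouse, over all cells and per lineage, and tested with edgeR 4.0.16 in R 4.3.3 (TMM, filterByExpr, quasi-likelihood, all 4 groups in 1 fit, Benjamini-Hochberg adjustment within each comparison, called at 0.05). DESeq2 1.42.0 was an alternative. A lineage was tested where at least 2 mice of each group had 20 cells in it (8 lineages), and ranked where enough mice had them (11). The total per library was 62416022 to 162869740 UMIs. Shares of positive cells were taken after thinning each cell to 5000 UMIs, by the expected share, and tested by exact two-sided permutation over mice with scipy 1.17.1. In the thinning 660, 2277, 2240 and 1679 shallower cells were left out of MxCre, Dnmt3a, Tnfr1KO-labelled and Tnfr2KO mice. On simulated all-cell counts for Tnfr2KO against Dnmt3a (4 mice each), the fit called 80 of 100 genes changed 2-fold and 92 of 100 changed 3-fold. The changed genes were drawn from those with a mean above 2 CPM. Lower genes, lineage sums and smaller groups were not simulated.

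The members, gene lists and tests were chosen with earlier results of these data known. The exact tests against all other mice, the gaps between lineages and the marker sums in the stem cell gate were added after seeing the data. Named genes are the 6 members, the genes of the fixed lists and of the 5 neighbours on each side of a member that were called over all cells, the called neighbours in the stem cell gate, Timp3 (chosen after its values were seen), and the 3 genes most like each member over lineages. The labels do not say whether mice of a group shared a donor, so p-values measure the spread between these mice, and floors and counts of UMIs carry counting error only. Replicate numbers do not pair the mice.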

Additional observations from a re-analysis of the deposited data

Results flagged for a closer look

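Of 75 groups of 4 mice examined (5 genes, all cells and lineages), 6 held a mouse whose gap to the nearest other exceeded Dixon's critical value, and chance gives about 1 in 20. Ltb in Dnmt3a replicate 4 stood at 21.2 CPM over all cells, against 4.32 to 5.43 in the other 3 mice, and at 37.5 in ungated cells, against 7.87 to 9.08. In this library 41.0% of the cells passed a lymphoid gate. In Tnfr2KO mice, Ltb was 110.5 CPM in the maturing neutrophils of replicate 2 (others 40.5 to 51.3) and 3.06 in the erythroid progenitors of replicate 1 (others 1.11 to 1.35). Ltbr was 10.4 in the erythroid progenitors of Tnfr2KO replicate 3 (others 7.02 to 7.47), and Tnfrsf1a was 83.3 in the maturing neutrophils of replicate 4 (others 69.2 to 70.1).

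The gap of Tnfrsf1b between granulocyte progenitors and 5 other lineages differed between the Tnfr2KO mice and the mice of the other groups. On the log2 scale the difference was −2.05 for erythroid progenitors, −1.02 for the stem cell gate, −1.02 for megakaryocyte progenitors, −0.83 for basophil and mast cell progenitors and −0.83 for ungated cells, by exact permutation tests that passed after adjustment. Those tests were added after the data were seen.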

How the results depend on the processing

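The 3 calls over all cells, all of Tnfrsf1b, held under each of 23 alternatives, and no direction of a called result reversed. Of 222 comparisons of the members within lineages 11 were called, and leaving out single mice gave 7 (without MxCre replicate 3) to 13. DESeq2 gave 13, no filter on low counts 16, totals without TMM 14, and the stricter gates 10. With the replicate number as a block, 3 calls were made over all cells and 12 within lineages. Same-numbered mice did not deviate together (19 pairs, r between −0.36 and 0.23), and 2 of 14 libraries correlated best with their own number. Under the stricter gates 6 of the neighbouring lineages differed in level, against 10 before; the cause was not tested. Without TMM the median log2 change of all genes moved to 0.12 in Dnmt3a against MxCre, −0.25 in Tnfr1KO-labelled and −0.24 in Tnfr2KO against Dnmt3a, and −0.10 and −0.12 in these groups against MxCre. The genes called higher and lower then numbered 427 and 136 (191 and 178 with TMM), 71 and 567 (43 and 26), and 135 and 1458 (92 and 50) in the first 3. Of the values for single genes and comparisons, 1114 kept their side of the threshold, 146 lost and 13 gained a call. Depth limits Lta above all, with 0 to 17 UMIs per library.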

Other observations

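Some of the small gates, which held too few cells for a test, had high pooled levels of the TNF receptors. The 115 cells of the macrophage gate (C1qa, C1qb and Adgre1 among its markers) had 119 CPM of Tnfrsf1b and 105 of Tnfrsf1a, and 38.3% and 39.1% of them had a UMI of these genes. The 112 stromal and endothelial cells had 245 CPM of Tnfrsf1a and 91.9 of Ltbr but 19.8 of Tnfrsf1b, and 0 Tnf UMIs (3 UMIs would be 5.41 CPM). In the 222 cells of the T, NK and innate lymphoid gate Tnfrsf1b stood at 37.6 and Tnf at 11.8 CPM, from 51 and 16 UMIs. Plasma cells (64) and eosinophil progenitors (110) had 1.60 and 24.4 CPM of Tnfrsf1a and 2.40 and 2.52 of Tnfrsf1b. The values pool the cells of all libraries. None of these 5 gates reached 20 cells in more than 2 libraries, and no comparison between groups was made.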
